A study of Mus musculus with 8 samples.

Results

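The acute phase plasma protein genes Saa1, Saa2, Saa3, Saa4, Orm1, Orm2, Lcn2, Hp, Hpx and Apcs were followed in the livers of 8 mice. These 10 genes are 10 of the 17506 genes or unnamed transcripts that could be tested, of which 11834 carry a gene symbol. They were chosen by name as proteins of the acute phase response, and by their log2 ratios of mutant over wild type on the 4 arrays, which were known at that time. The ratios by genotype are therefore given as a description with no test. The stated choice did not use male against female, which was tested. Members, lists and tests were still set with earlier results of these data known. Each member was read by 1 probe, found through its RefSeq transcript.

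The mice were homozygous either for mutant PUS1 or for wild type PUS1, a gene whose product makes pseudouridine in tRNA and other RNA. All animals were C57BL/6J after 5 generations of backcrossing, were 14 to 16 weeks old and gave frozen liver. Liver RNA was hybridised to 4 2-colour Agilent arrays, a mutant with a wild type of its own sex on each, females on arrays 1 and 2 and males on arrays 3 and 4. The mutant was labelled with Cy5 on arrays 1 and 3 and with Cy3 on arrays 2 and 4, so that each of the 4 groups of genotype and sex holds 2 livers, 1 in each dye. A liver is named here by its genotype and its array number. The labels give no cell or promoter restriction for the mutant allele, no infection, no treatment and no litter. The Pus1 probe read 8.45 to 8.92 on the log2 scale in the 4 wild-type livers and 6.32 to 6.81 in the 4 mutants, where it was not well above background.

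The acute phase response is the change in plasma proteins that follows infection or tissue injury. Macrophages release interleukins, hepatocytes answer through STAT3, NF-kB and C/EBP factors, and the liver then secretes serum amyloid A, acid glycoproteins, lipocalin and scavengers of hemoglobin and heme. Serum amyloid A is among the plasma proteins that move most in this response in mice, and it circulates on high density lipoprotein. Interleukin 6 is the main hepatocyte signal, and interleukin 1 and tumour necrosis factor add the NF-kB arm.

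The 250 bases before the transcript start in RefSeq (GRCm38.p6) were searched on both strands for 3 short motifs of these factors. The promoter table matched 8 of the 10 genes, with Orm1 and Hp not among them. The C/EBP-like motif was TTGCNNAA, the STAT-like motif was TTCNNNGAA, and the NF-kB-like motif was GG and TTTCC with 3 free bases between them. No matches overlapped each other. The C/EBP-like motif was present in 7 of the 8 windows (Saa1, Saa2, Saa3, Saa4, Orm2, Lcn2 and Hpx) and in 9.56% of all 32851 promoter windows of the same length. The STAT-like motif was in the Apcs window only among the 8, and in 7.02% of all windows. The NF-kB-like motif was in the Saa1 window only among the 8, from 91 to 82 bases before the start, and in 4.63% of all windows. A match of this kind describes letters in a window and not the binding of a factor. The windows of the genes with the widest male to female gaps are printed, with Saa3 beside its family, 5′ to 3′ on the gene's strand with motif matches in capitals: Saa1 at chr7:46742981-46743230 (minus strand), Saa2 at chr7:46751583-46751832 (plus strand), Saa3 at chr7:46715677-46715926 (minus strand), Lcn2 at chr2:32387740-32387989 (minus strand) and Orm2 at chr4:63362199-63362448 (plus strand).
Saa1: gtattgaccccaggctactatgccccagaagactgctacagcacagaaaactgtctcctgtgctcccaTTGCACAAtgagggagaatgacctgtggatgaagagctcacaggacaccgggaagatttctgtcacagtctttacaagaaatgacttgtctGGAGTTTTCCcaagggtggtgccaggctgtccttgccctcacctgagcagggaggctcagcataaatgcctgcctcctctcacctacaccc
Saa2: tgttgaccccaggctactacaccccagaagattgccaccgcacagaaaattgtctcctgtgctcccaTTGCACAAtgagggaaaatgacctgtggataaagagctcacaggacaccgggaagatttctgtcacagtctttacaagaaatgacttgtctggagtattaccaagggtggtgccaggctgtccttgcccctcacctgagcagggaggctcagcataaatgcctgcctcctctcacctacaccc
Saa3: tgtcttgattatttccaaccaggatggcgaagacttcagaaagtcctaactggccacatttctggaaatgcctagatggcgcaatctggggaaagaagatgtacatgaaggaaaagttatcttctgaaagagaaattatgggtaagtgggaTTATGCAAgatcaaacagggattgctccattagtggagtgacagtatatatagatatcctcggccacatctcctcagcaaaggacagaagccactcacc
Lcn2: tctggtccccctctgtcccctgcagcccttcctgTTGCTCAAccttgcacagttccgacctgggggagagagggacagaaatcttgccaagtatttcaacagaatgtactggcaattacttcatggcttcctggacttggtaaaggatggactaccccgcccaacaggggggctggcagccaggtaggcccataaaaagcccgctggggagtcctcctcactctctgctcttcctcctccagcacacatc
Orm2: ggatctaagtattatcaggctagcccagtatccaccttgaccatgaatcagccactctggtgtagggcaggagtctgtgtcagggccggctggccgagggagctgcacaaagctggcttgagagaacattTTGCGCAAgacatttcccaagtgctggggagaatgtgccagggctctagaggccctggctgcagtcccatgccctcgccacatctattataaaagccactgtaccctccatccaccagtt

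Saa1 and Saa2 lie next to each other in the Saa cluster of chromosome 7 and point away from each other. Their windows were 94.8% identical, 238 of 251 aligned positions. The next most alike pair among the 8 windows, Saa1 and Orm2, shared 54.5%. The C/EBP-like match stood 182 to 175 bases before the Saa1 start and 183 to 176 bases before the Saa2 start, within the same letters of both windows. The NF-kB-like match of Saa1 had no counterpart in Saa2, whose letters differ there. In Saa3 the C/EBP-like match lay 99 to 92 bases before the start, in Orm2 120 to 113, in Lcn2 216 to 209 and in Hpx 200 to 193. Saa4 held a pair of such matches, 245 to 238 and 52 to 45 bases before its start.

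**Figure D1:**
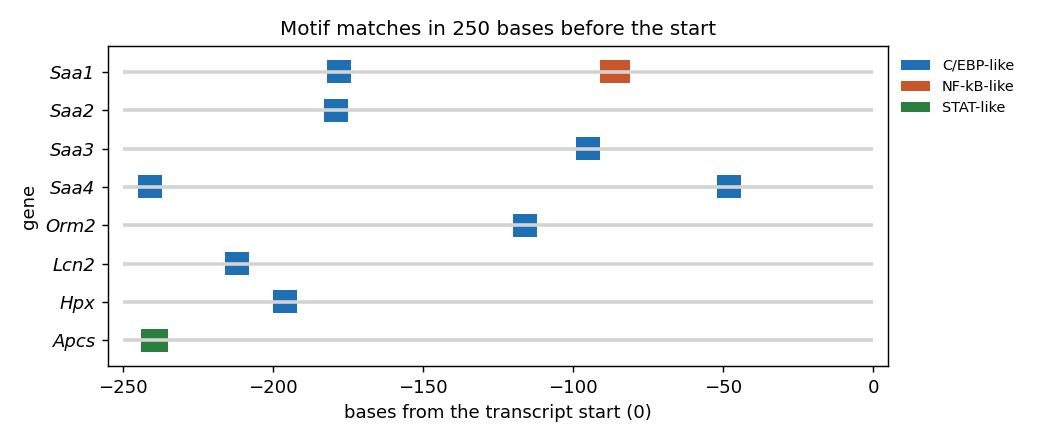
Positions of motif matches (coloured blocks) in the 250 bases before the transcript start of the 8 member genes with a promoter entry; the x axis is the distance from the start in bases. C/EBP-like matches appear in 7 of the 8 windows, the STAT-like match only in Apcs and the NF-kB-like match only in Saa1.

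All 10 member probes were well above background in all 8 livers. A level is a log2 signal after background correction and normalization, so that 1 unit is a factor of 2, and it is compared between livers and never between genes. Between 36.8% and 37.9% of spots were well above background in the male livers and between 42.2% and 44.0% in the female livers. Of the member spots, 1 was saturated, that of Hp in wild type 4, whose level there is a lower bound. Males and females were never on 1 array, so each sex rests on 2 arrays of a single slide, and array and sex cannot be told apart. The threshold for a call was an adjusted p of 0.05 in limma over all 17506 genes. In whole liver, RNA from more cells of a type and more RNA per cell cannot be told apart.

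Serum amyloid A and lipocalin RNA read higher in the males than in the females, without passing the test over all genes. Saa1 and Saa2 read about 30.6-fold higher in the males and Lcn2 13.3-fold higher, with every male above every female, in both genotypes and in both dyes. None of the 10 members passed the test by sex (0 called), where limma called 18 genes higher in males, 0.103% of those tested, and 19 lower, 0.109%. The levels of the 4 males lay all above those of the 4 females for 5 of the 10 members (Saa1, Saa2, Orm1, Orm2 and Lcn2), against 12.6% of all genes tested. They lay all below for 0 of the 10, against 12% of all genes. The median of the 10 male minus female log2 differences was 0.98, and that of all genes 0.00.

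**Figure D2:**
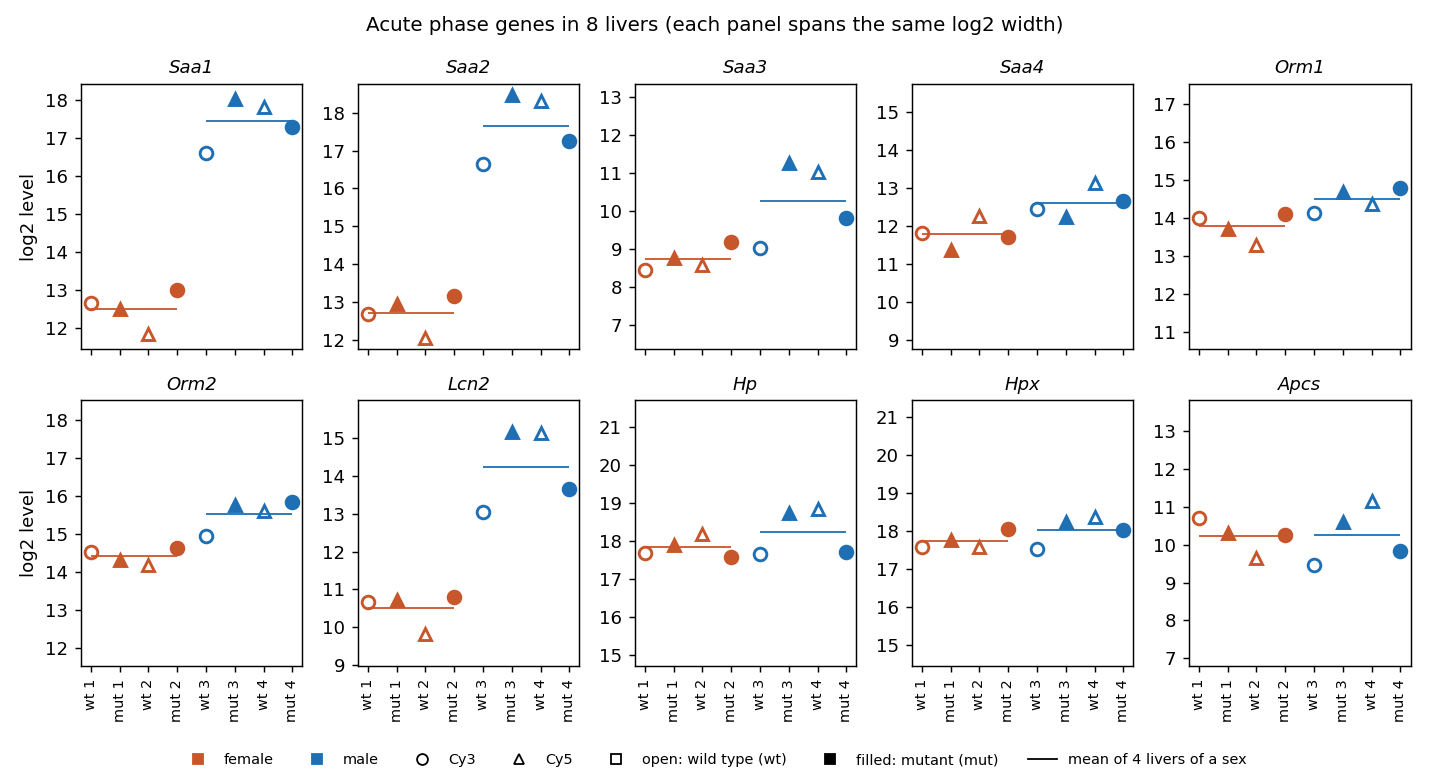
Log2 level (y axis) of each member gene in each of the 8 livers (x axis), with females in orange and males in blue, wild types open and mutants filled, Cy3 as circles and Cy5 as triangles; lines are the mean of the 4 livers of a sex. Saa1, Saa2 and Lcn2 separate the sexes by more than 2 log2 units, while Hp, Hpx and Apcs overlap.

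Saa1 encodes a secreted serum amyloid A, an apolipoprotein made by hepatocytes during inflammation. In females its log2 level was 12.66 in wild type 1, 12.50 in mutant 1, 11.86 in wild type 2 and 13.02 in mutant 2. In males it was 16.62 in wild type 3, 18.02 in mutant 3, 17.83 in wild type 4 and 17.30 in mutant 4. The lowest male stood 3.60 log2 units above the highest female, and mutants and wild types overlapped within both sexes. The difference was 4.94 (SE 1.03), 30.6-fold, with a limma adjusted p of 0.127. It was 31.3-fold among wild types and 29.9-fold among mutants. In size it ranked 14 of the 17506 log2 differences by sex.

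Saa2 encodes the neighbouring serum amyloid A, induced together with Saa1, and each of the pair carries the other's symbol as an older synonym in RefSeq. In females its log2 level was 12.69 in wild type 1, 12.95 in mutant 1, 12.07 in wild type 2 and 13.18 in mutant 2. In males it was 16.63 in wild type 3, 18.45 in mutant 3, 18.29 in wild type 4 and 17.25 in mutant 4. The sexes were separated by 3.46 log2 units, and the order of the livers within the males was that of Saa1, with mutant 3 highest and wild type 3 lowest. The difference was 4.94 (SE 1.17), also 30.6-fold, with a limma adjusted p of 0.154, and it ranked next to Saa1 at 15. Probe sequences were not analysed here, so how far each probe also reads the other transcript was not tested.

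Saa3 encodes the serum amyloid A of macrophages, fat and other tissues outside the hepatocyte as well as of the inflamed liver. Its log2 level ran from 8.46 to 9.19 in the females. In the males it was 9.02 in wild type 3, 11.26 in mutant 3, 11.03 in wild type 4 and 9.81 in mutant 4. Mutant 3 and wild type 4, the males in Cy5, stood highest, and wild type 3 lay below the highest female, so that the sexes overlapped. The difference of 1.53 (SE 1.19), 2.89-fold, had a limma adjusted p of 0.570. It was 5.54-fold in the Cy5 livers and 1.5-fold in the Cy3 livers.

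Saa4 encodes the constitutive serum amyloid A, which changes little in inflammation. Its log2 level ran from 11.37 to 12.26 in females and from 12.23 to 13.12 in males, with the lowest male just below the highest female. The difference was 0.82 (SE 0.25), 1.77-fold, with a limma adjusted p of 0.217. With the scanner's processed signals it was 0.25 (limma adjusted p 0.761). Of the 4 family members it was the one with nearly the same value in both dyes, 1.72-fold in Cy3 and 1.82-fold in Cy5.

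Orm1 and Orm2 encode orosomucoids, acid glycoproteins that carry drugs and lipids in plasma. Orm2 read 14.51, 14.31, 14.19 and 14.62 on the log2 scale in the females wild type 1, mutant 1, wild type 2 and mutant 2. In the males wild type 3, mutant 3, wild type 4 and mutant 4 it read 14.95, 15.75, 15.59 and 15.85. The sexes did not overlap, with a gap of 0.33, and wild type 3 was again the lowest male. The difference of 1.13 (SE 0.41), 2.19-fold, had a limma adjusted p of 0.273. Orm1 ran from 13.31 to 14.10 in females and from 14.14 to 14.78 in males, a gap of 0.04 that is smaller than the spread within either sex (SD 0.36 and 0.29). Its difference of 0.71 (SE 0.42), 1.64-fold, had a limma adjusted p of 0.449. With processed signals the differences were 0.17 for Orm1 and 0.66 for Orm2 (limma adjusted p 0.906 and 0.593). Both belong to 1 small gene cluster, and how far each probe also reads the other transcript was not tested.

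Lcn2 encodes lipocalin 2, which binds bacterial siderophores and withholds iron. Hepatocytes make it in the acute phase, and neutrophils store it in granules. Its log2 level in females was 10.68 in wild type 1, 10.72 in mutant 1, 9.83 in wild type 2 and 10.80 in mutant 2. In males it was 13.04 in wild type 3, 15.14 in mutant 3, 15.13 in wild type 4 and 13.65 in mutant 4. The lowest male lay 2.24 log2 units above the highest female, and the males formed a pair of Cy5 livers above a pair of Cy3 livers. The difference was 3.73 (SE 1.42), 13.3-fold, with a limma adjusted p of 0.288. It was 14.2-fold among wild types and 12.4-fold among mutants, and 6.10-fold in Cy3 and 29.0-fold in Cy5. The mean log2 level of 6 neutrophil markers ran from 9.33 to 10.45 in females and from 9.70 to 10.76 in males. All 6 overlapped between the sexes, with male minus female differences of -0.002 for S100a8, -0.04 for S100a9, -0.08 for Retnlg, 0.15 for Camp, 0.30 for Elane and 0.34 for Csf3r. Ngp and Ltf, which mark neutrophil granules, were well above background in at most 1 and 0 livers. The mean of the 6 was lowest in wild type 2 and highest in mutant 3, the livers where Lcn2 was also lowest and highest. In the males wild type 3 and wild type 4 it was 9.70 and 9.99. Those means lay below the females wild type 1, mutant 1 and mutant 2 (10.24 to 10.45), whose Lcn2 was lower. The part of neutrophils in the Lcn2 values was not tested.

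Hp encodes haptoglobin, which binds free hemoglobin, and Hpx encodes hemopexin, which binds free heme. Hp read 17.67, 17.89, 18.18 and 17.56 on the log2 scale in the females wild type 1, mutant 1, wild type 2 and mutant 2. In the males wild type 3, mutant 3, wild type 4 and mutant 4 it read 17.64, 18.73, 18.83 and 17.71. The sexes overlapped, and on every array the Cy5 liver was the higher. The saturated spot was wild type 4, the highest value of the 8. The measured difference by sex was 0.40 (SE 0.45), a lower bound because of that spot, with a limma adjusted p of 0.696. Hpx ran from 17.57 to 18.06 in females and from 17.52 to 18.36 in males, a difference of 0.29 (SE 0.45) with a limma adjusted p of 0.786.

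Apcs encodes serum amyloid P component, a pentraxin that binds amyloid fibrils and bacterial surfaces and that varies in inflammation in mice. It ran from 9.66 to 10.71 in females and from 9.46 to 11.13 in males, with males at both ends of the 8 livers. The difference was 0.02 (SE 1.11), with a limma adjusted p of 0.995. Its sign was not stable. Within the Cy3 livers the males read 0.84 log2 units lower (male minus female -0.84), and within the Cy5 livers 0.88 higher.

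**Figure D3:**
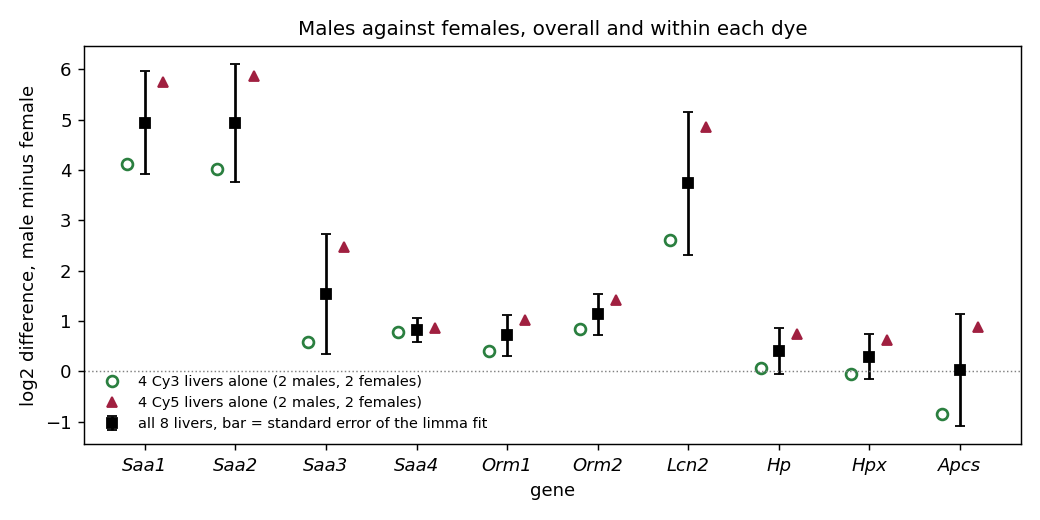
Male minus female log2 difference (y axis) of each member gene over all 8 livers (squares, with the standard error of the limma fit), in the 4 Cy3 livers (circles) and in the 4 Cy5 livers (triangles). The Cy5 value lies above the Cy3 value for every member, a gap set by the array ratios known when the genes were chosen. Saa1, Saa2 and Lcn2 stay above 2.6 in both dyes.

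The SD was larger among the males than the females for 9 of the 10 genes, Orm1 being the exception, and nearly equal for Saa4 (0.38 and 0.37). The share over all genes was not computed, so nothing is read from that count. Within the males, the dye went with the level for most members. On both male arrays the Cy5 liver (mutant 3 and wild type 4) was the higher for 7 of the 10 members, against 32.1% of all genes tested. The exceptions were Saa4, Orm1 and Orm2. On both female arrays the Cy5 liver was the higher for 1 member, Hp, with the share of all genes not computed. These Cy5 over Cy3 values are the genotype ratios of each array, turned where the mutant was in Cy3. They were known when the genes were chosen, so nothing is read from these counts. The mean Cy5 over Cy3 fold of the male arrays was 3.45 for Lcn2, 3.32 for Saa3, 2.69 for Saa2 and 1.95 for Saa1. Since the Cy5 males were different animals from the Cy3 males, dye and animal cannot be told apart within a sex. The male minus female fold of Saa1 was 17.5 within Cy3 and 53.8 within Cy5, and that of Saa2 was 16.1 and 58.1, each from 2 males and 2 females and without a test.

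The fit by sex depended on how the 2 livers of an array were tied together. With the within-spot correlation of 0.793 that all genes gave together, 0 of the 10 members passed. Without the array as a replicate block 7 of the 10 passed in limma (Saa1 with an adjusted p of 0.00142, Saa2 with 0.00234 and Lcn2 with 0.00742), but 3243 genes passed in all. Leaving out any 1 array, with the correlation kept, the difference of Saa1 ran from 4.81 to 5.06. That of Saa2 ran from 4.82 to 5.05 and that of Lcn2 from 3.54 to 3.93 in the same 4 fits. Each of these fits holds a lone array in 1 sex, which is taken to vary like the others. With 3 arrays the fit matches every Cy5 to Cy3 ratio exactly, so a dye difference between the sexes cannot enter the SE. The SE of Saa1 was 1.03 with all 4 arrays and 0.156 to 0.179 with 3. Whether a gene passes in these fits is therefore not given.

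Mutant over wild type was the contrast already known when the genes were chosen, so its values are listed with no test of the members, and nothing is read from their counts. The mean log2 ratio of mutant over wild type was above 0 for 8 of the 10 members and below 0 for 2, with a median of 0.34 beside -0.01 for all genes. Over all 17506 genes limma called 0 by genotype (0%), with 1562 at an unadjusted p under 0.05. None of the 10 was higher in the mutant on all 4 arrays, against 9% of all genes, and 1, Saa4, was lower on all 4, against 8.69%. Only the ratio of Saa4 kept its sign among the 10.

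Saa1 gave log2 ratios of -0.15, 1.16, 1.40 and -0.53 on arrays 1 to 4, a mean of 0.47 (SD 0.95, n = 4). Saa2 gave 0.26, 1.10, 1.82 and -1.04, with a mean of 0.53 (SD 1.23). Saa3 gave 0.30, 0.61, 2.24 and -1.22, with a mean of 0.48 (SD 1.42). In all 3 genes the male arrays 3 and 4 went opposite ways, and the spread over arrays exceeded the mean. Saa4 gave -0.45, -0.56, -0.20 and -0.47, a mean of -0.42 (SD 0.16), or 1.34-fold lower in mutants. It was the member with the least spread over arrays.

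Lcn2 gave 0.04, 0.97, 2.10 and -1.47, a mean of 0.41 with the largest spread of the 10 (SD 1.51). Orm1 gave -0.30, 0.80, 0.54 and 0.40, with a mean of 0.36 (SD 0.47), and Orm2 gave -0.21, 0.43, 0.80 and 0.25, with a mean of 0.32 (SD 0.42). For the orosomucoids array 1 alone lay below 0. Hp gave 0.22, -0.62, 1.09 and -1.12, with a mean of -0.11 (SD 0.97), its sign following the dye on each array, and both the value of array 4 and the mean are upper bounds because the wild-type spot was saturated. Hpx gave 0.19, 0.49, 0.72 and -0.33, with a mean of 0.26 (SD 0.45). Apcs gave -0.41, 0.60, 1.13 and -1.31, with a mean of 0.00 (SD 1.08). Array 3 gave the highest ratio for 9 of the 10 members, all but Orm1, and array 4 the lowest for 7.

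**Figure D4:**
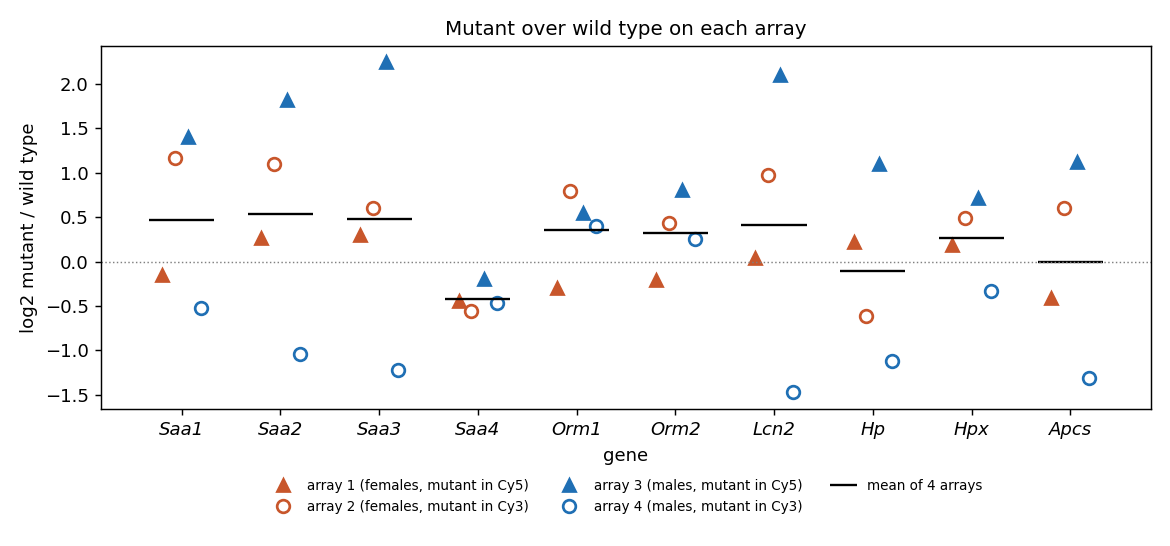
Log2 mutant over wild type (y axis) of each member gene on each array, with female arrays in orange, male arrays in blue, filled triangles where the mutant was in Cy5 and open circles where it was in Cy3; black lines are means of 4 arrays. Array 3 and array 4 lie on opposite sides of 0 for 7 members, and Saa4 stays below 0 on all 4 arrays.

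Of 36 other proteins that rise in the acute phase, 33 were tested, and 0 were called by genotype or by sex. Their median difference by sex was -0.13, beside 0.98 for the members. C3, Serpina1a and Ftl1 among them were saturated in some livers. Males lay all above females for 1 of the 33, Lrg1, a leucine-rich glycoprotein of the same response (14.13 to 14.67 in females, 15.38 to 16.42 in males). Males lay all below for 4, which were Hamp2, Mbl2, Spp2 and Agt. Over all genes these shares were 12.6% above and 12% below. Hamp2, a hepcidin, read 15.99 to 16.82 in females and 10.66 to 13.50 in males, a difference of -4.44 (SE 0.83) with a limma adjusted p of 0.112. Mbl2, a mannose-binding lectin, differed by -1.25 (adjusted p in limma 0.103). By genotype, Agt, which encodes angiotensinogen, was higher in mutants on all 4 arrays (0.30, SE 0.14) and Fgb, a fibrinogen chain, lower (-0.22, SE 0.11). Here and below, genes singled out for the sexes not overlapping were named after their values were seen.

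Of 16 proteins that fall in the acute phase all were tested, 0 were called, and the median difference by sex was -0.20. Males lay all below females for 4 of them, Alb, Serpina6, Gc and Pon1, and all above for 1, Fetub. These counts stand beside 12% of all genes below and 12.6% above. Albumin (Alb) was saturated in 2 of the 4 females, so its levels there are lower bounds and no ratio is given. Trf, Apoa2 and Ahsg were saturated in some livers of both sexes, so their differences within the median are uncertain. Ttr, the carrier of thyroxine and retinol-binding protein, was higher in mutants on all 4 arrays (0.58, SE 0.11).

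Of the upstream signals, 3 of 12 cytokines could be tested. Il6 was well above background in 1 liver at most and Tnf in 0. Il1b overlapped between the sexes, 6.83 to 9.69 in females and 6.89 to 8.38 in males, and Ctf1 lay all below in males. Among 18 tested receptors and transducers, males lay all above females for 1, Il1r1, the receptor of interleukin 1, and all below for 1, Jak1. Beside these counts and those that follow stand 12.6% of all genes above and 12% below. By genotype Tlr2 was higher in mutants on all 4 arrays (0.35, SE 0.14), and Osmr (-0.24, SE 0.11) and Jak2 (-0.16, SE 0.10) were lower. Among 17 tested transcription factors, males lay all above females for 1, Stat3, and all below for 1, Atf3. Stat3, which carries the interleukin 6 signal, read 12.44 to 13.02 in females and 13.20 to 13.65 in males (0.63, SE 0.24, adjusted p in limma 0.291). Atf3 was well above background in 0 males and in 4 females, so its probe passed the filter through the females alone. Nfkb2, a subunit of NF-kB, was higher in mutants on all 4 arrays (0.19, SE 0.11). Cebpa, Cebpb and Cebpd, which encode C/EBP factors, overlapped between the sexes with differences of 0.03, 0.17 and -0.17. Among 11 tested feedback inhibitors, Socs3 overlapped between the sexes (8.67 to 9.24 in females, 8.97 to 9.96 in males), and Socs2 was lower in mutants on all 4 arrays (-0.68, SE 0.27). Tnfaip3, of the same list, lay all below in males, with its probe well above background in 0 males and 4 females. None of these genes was called by sex or genotype.

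Haptoglobin and hemopexin bind hemoglobin and heme, and the hemoglobin chains did not overlap between the sexes, whereas Hp and Hpx did. Hba-a1, a hemoglobin alpha chain, read 12.96 to 14.41 in females and 15.47 to 16.16 in males, a difference of 2.22 (SE 0.52) with a limma adjusted p of 0.152. The beta chains Hbb-b1 and Hbb-bt differed by 1.98 (SE 0.43) and 2.28 (SE 0.47), with limma adjusted p of 0.134 and 0.126, also without overlap. The receptor Lrp1, which takes up hemopexin with heme, differed by 0.25 (SE 0.17), with a limma adjusted p of 0.525. Scarb1, of the same list, differed by 0.27 (SE 0.16), with a limma adjusted p of 0.461. Males lay all above females for these 5 of the 11 genes tested on the list, against 12.6% of all genes. Cd163, the haptoglobin and hemoglobin receptor, was well above background in 0 livers. The part of red cell RNA or blood content in the differences of the members was not tested.

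Markers of other liver cells were set beside the members. The mean log2 level of 10 hepatocyte markers was 16.50 to 16.54 in females and 16.10 to 16.31 in males, without overlap. Serpina1a was saturated in 2 livers of each sex and Alb in 2 females. Alb, Apoa1, Ttr, Serpina1a and Fgb among these markers are also on the lists of acute phase proteins above. Their mean is therefore not a reading of cell type apart from that response. The mean of 13 Kupffer cell and macrophage markers ran from 9.91 to 11.22 in females and from 10.09 to 11.21 in males. All 13 of these markers were higher in mutants on all 4 arrays, against 9% of all genes, with a median log2 ratio of 0.66. None was called by genotype (0 of 13), and the list was chosen with earlier results of these data known. C1qa (0.91, SE 0.25), Lyz1 (0.89, SE 0.16) and Cd5l (0.74, SE 0.16) led this list. Of 6 neutrophil markers tested, 1, Camp, was higher in mutants on all 4 arrays (0.41, SE 0.13), against 9% of all genes. The fitted ratios of the others were 1.63 for S100a9, 1.51 for S100a8, 0.64 for Retnlg, 0.02 for Elane and -0.53 for Csf3r. S100a8, S100a9 and Retnlg were below 0 on array 1. None of the 6 was called by genotype. The part of these cells in the ratios of the members was not tested.

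Genes outside the 10 were ranked by likeness to the mean pattern of the members over the 8 livers, measured by Pearson r of log2 levels. The nearest were Gprc5a (r = 0.991), Tyw1 (0.986), Il27 (0.984), Cryaa (0.980), Oscar (0.977), Kcnd1 (0.974), Sntb1 (0.973), Nfe2l1 (0.972), Lrg1 (0.971) and Thap7 (0.971). To Saa1 alone the nearest were Thap7 (r = 0.995), Bok (0.994), Enpp3 (0.991), Treh (0.991) and Cryaa (0.990). The 8 livers form 2 clusters by sex and share 4 arrays, so any gene that separates the sexes in this way reaches a high r. Of these, Lrg1 is the one on the list of other acute phase proteins. The mean pattern itself, the average deviation of the 10 members from their own means, was -0.87, -0.92, -1.20 and -0.70 in the females wild type 1, mutant 1, wild type 2 and mutant 2. It was 0.19, 1.36, 1.42 and 0.73 in the males wild type 3, mutant 3, wild type 4 and mutant 4. Wild type 3 thus lay nearest to the females among the males.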

How the data were processed

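Members, gene lists, tests and alternatives were chosen with earlier results of these data known. Per the file headers and the submitters' processing notes, the arrays were read with Agilent Feature Extraction 10.7.3.1, and the deposited values are an intensity on a linear scale (median signal and median local background of each spot) and processed signals already corrected for background, trend and dye. Per the file headers, the other columns used are 0 or 1 marks for saturated, well above background and outlier spots. The deposited series table holds log2 values, centred per probe and used only as an alternative. Their medians were -0.0135, -0.00533, -0.00751, -0.00382, -0.000998, 0.00941, 0.00988 and 0.015 for the Cy3 and then the Cy5 liver of arrays 1, 2, 3 and 4 in turn. Their Cy5 minus Cy3 differences correlated with those of the processed signals at 0.996 to 0.998 per array, so their scale and direction were taken from this match, while any step beside the centring is unknown. A further 68 signal columns were left unused.

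Background was corrected by normexp with an offset of 50, and loess was run within arrays, in limma 3.58.1 (R 4.3.3; files were read by data.table, version 1.17.8), with outlier spots left out. Levels were further normalized by Aquantile. Of 55681 probes, 27656 were named with 20972 symbols. A probe was kept where 4 or more of the 8 livers had it well above background (22026 probes), with the brightest probe standing for a gene. Depth is set by the number of arrays, 4. No 2 livers had identical signals (0 pairs).

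The genotype fit used the array ratios with a dye coefficient and 2 residual degrees of freedom. The sex fit used separate channels with groups of genotype and sex, dye and a within-spot correlation of 0.793. Both used empirical Bayes and Benjamini-Hochberg adjustment over all genes at 0.05. The replicate number names a shared array, so it pairs livers. Deviations from the mean of each genotype correlated at 0.686, 0.176, 0.56 and 0.646 across genes between livers sharing an array. The sex difference was left in these deviations. Livers sharing an array also share a sex, so the values do not separate array from sex. Genes named were all members, of each list the 3 largest genotype ratios with 1 sign on all 4 arrays and up to 4 called by sex, and the 10 and 5 most alike genes. A gene that this rule names is not reported here. Sequences came from RefSeq, aligned with biopython 1.88 under Python 3.11.15 (pandas 2.3.3), and figures from matplotlib 3.10.9.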

Additional observations from a re-analysis of the deposited data

Results flagged for a closer look

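Among 40 groups of 4 livers tested for a value that stands apart (Dixon's test at the 95% level, in which chance alone marks some groups, about 5% of them), 2 did so. Lcn2 in wild type 2 read 9.83 on the log2 scale among the 4 females, whose others read 10.68 to 10.80, a gap of 0.878 of the range. This liver was the lowest female also for Saa1, Saa2, Orm1, Orm2, Hpx and Apcs. Hpx in wild type 4 read 18.36 among the 4 wild types, whose others read 17.52 to 17.59, a gap of 0.922 of the range. The Hpx spot of that liver was not saturated.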

How the results depend on the processing

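The median of the members by genotype (0.34) lay between 0.013 (without replicate 2) and 0.57 (without replicate 1). Their median by sex (0.98) was 0.54 with processed signals and 0.78 to 1.2 when 1 array was left out. The 0 genes called by genotype became 1 with normexp offset 16, with median centring, without the filter on dim probes and without the dye coefficient, stayed at 0 without the replicate block, and ran from 0 to 1517 when 1 array was left out, the highest without replicate 4. The 37 genes called by sex became 10 with processed signals, 6 with probes well above background in all 8 livers, 3277 without the dye coefficient and 3243 without the replicate block. They ran from 77 (without replicate 4) to 1245 (without replicate 2), with 204 without replicate 1 and 102 without replicate 3. Without the dye coefficient the within-spot correlation was 0.01 in place of 0.793, and 6 members passed in limma. The cause of the other changes was not tested.

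The difference of Apcs by sex turned to -0.64 with processed signals, -0.010 with the series table and -0.075 in mutants alone, and ran from -0.25 to 0.29 when 1 array was left out, below 0 without replicate 2 (-0.25) and replicate 4 (-0.21). Within the Cy3 livers alone, a comparison added after seeing the data, it was -0.84 and that of Hpx -0.044. Saa1, Saa2 and Lcn2 kept their direction by sex in all 18 alternatives, from 4.13 to 5.75, from 4.01 to 5.86 and from 2.61 to 4.86. The settings for the filter on dim probes, the mean of probes, the dye coefficient and the replicate block left these estimates unchanged. Those settings could therefore not turn a direction. With processed signals the adjusted p of Saa1, Saa2 and Lcn2 in limma were 0.316, 0.324 and 0.488.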
